A study of Mus musculus with 6 samples.

Results

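The Nodal and ERK feedback loci are the genomic surroundings of 10 genes that act in, or are switched on by, Nodal and FGF/ERK signalling in mouse embryonic stem cells (mESCs): *Nodal*, *Tdgf1*, *Lefty1*, *Lefty2*, *Smad7*, *Dusp6*, *Spry2*, *Spry4*, *Etv4* and *Etv5*. Their peaks were chosen by position alone, as all ATAC-seq peaks that overlap the body of one of these genes or lie within 50 kb of it in the GENCODE annotation of mm9. This gave 38 of 21698 autosomal peaks in the WT list and 33 of 22457 in the *Spen* KO list, around 10 of 21418 autosomal coding genes. ATAC-seq marks open chromatin, where Tn5 transposase can insert adapters into DNA. The cells were haploid mESCs of mixed genetic background that carry a doxycycline-inducible *Xist* transgene, grown in serum and LIF on gelatin. The lines compared are WT (HATX WT) and *Spen* KO clone 3, which is 1 knockout clone. Clone 2 was not analysed here. The sample records name each line without doxycycline and after 48 hours with 2 ug/ml doxycycline, but the lists are labelled by line alone. Whether they come from treated cells is not given, nor whether the 2 replicates behind each list differ in doxycycline. Each line has 1 list of peaks found in both of 2 technical replicates, so no test between the lines was possible, and a difference between the lists is a difference between these libraries. Read depth is unknown.

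Nodal is a TGF-beta family ligand that signals with the co-receptor encoded by *Tdgf1* (Cripto) through activin receptors to Smad2 and Smad3, which reach many of their targets together with the DNA-binding factor FoxH1. The pathway switches on its own inhibitors, the secreted Lefty proteins and the inhibitory Smad7. In the same cells Fgf4 acts on ERK, and ERK switches on the genes of its own brakes, Dusp6 and the Sprouty proteins, as well as the ETS factors Etv4 and Etv5, so that transcription of these genes is often read as a gauge of how active each pathway is.

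For every peak the lists give 1 value per technical replicate, on a scale that is not named. The score of a peak is the mean of its 2 values, and it is given as a percentile, from 0 for the weakest peak to 100 for the strongest, among the 22698 WT or 23656 clone 3 peaks on chromosomes 1 to 19 and X. A peak is called shared where it and a peak of the other line have 1 bp or more in common, and any other peak is list-only. A shared peak is called higher or lower in clone 3 where both of its clone 3 replicate percentiles lie above, or below, both of its WT ones. A TSS peak covers an annotated transcription start site (TSS) of the gene or has an edge within 1 kb of one, and distances are from the outermost TSS to the midpoint of a peak.

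Most of the open chromatin at these loci was found in both lines. Of the 38 WT peaks, 29 overlapped a clone 3 peak and 9 did not, which is 23.7% (95% Wilson interval 13.0 to 39.2%) against 26.0% of all autosomal WT peaks. Of the 33 clone 3 peaks, 29 overlapped a WT peak and 4 did not, which is 12.1% (4.82 to 27.3%) against 28.4% of all autosomal clone 3 peaks. The WT share lay close to that of all peaks, and the clone 3 share lay below it, with an upper bound just under it. That gap depended on the window: with 20 kb, 0 of 17 clone 3 peaks were list-only, and with 100 kb 10 of 47 were, an interval of 11.99 to 34.9% that includes the share of all peaks. These intervals cover counting error only. The list-only peaks were weak. All 9 WT-only peaks and all 4 clone 3-only peaks scored below the median of their list. So did most list-only peaks of all autosomes, 4968 of 5645 in WT and 5378 of 6383 in clone 3. Below the median, 9 of 19 WT and 4 of 14 clone 3 peaks at these loci were list-only, against 45.5% and 47.5% of all autosomal peaks. At or above the median, 0 of 19 WT and 0 of 19 clone 3 peaks at these loci were list-only, against 6.29% and 9.02% of all autosomal peaks. Whether chromatin is closed where 1 list has no peak was not tested.

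A TSS peak was present at 6 of the 10 genes in WT (*Smad7*, *Dusp6*, *Spry2*, *Spry4*, *Etv4* and *Etv5*), against 46.3% of all autosomal coding genes. In clone 3 it was present at 5, all but *Spry4*, against 42.3%. *Nodal*, *Tdgf1*, *Lefty1* and *Lefty2* had none in either list at this distance. At least 1 WT-only peak lay in the window of 6 genes (*Nodal*, *Smad7*, *Dusp6*, *Spry2*, *Spry4* and *Etv5*), against 44.6% of autosomal coding genes, and at least 1 clone 3-only peak in that of 4 (*Nodal*, *Lefty1*, *Smad7* and *Spry4*), against 38.0%. The loci were rich in peaks: the median window held 4.5 WT and 4 clone 3 peaks, against 2 in each list over all autosomal coding genes, although the median number of other coding genes starting in the window was 1.5 against 2.

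**Figure D1:**
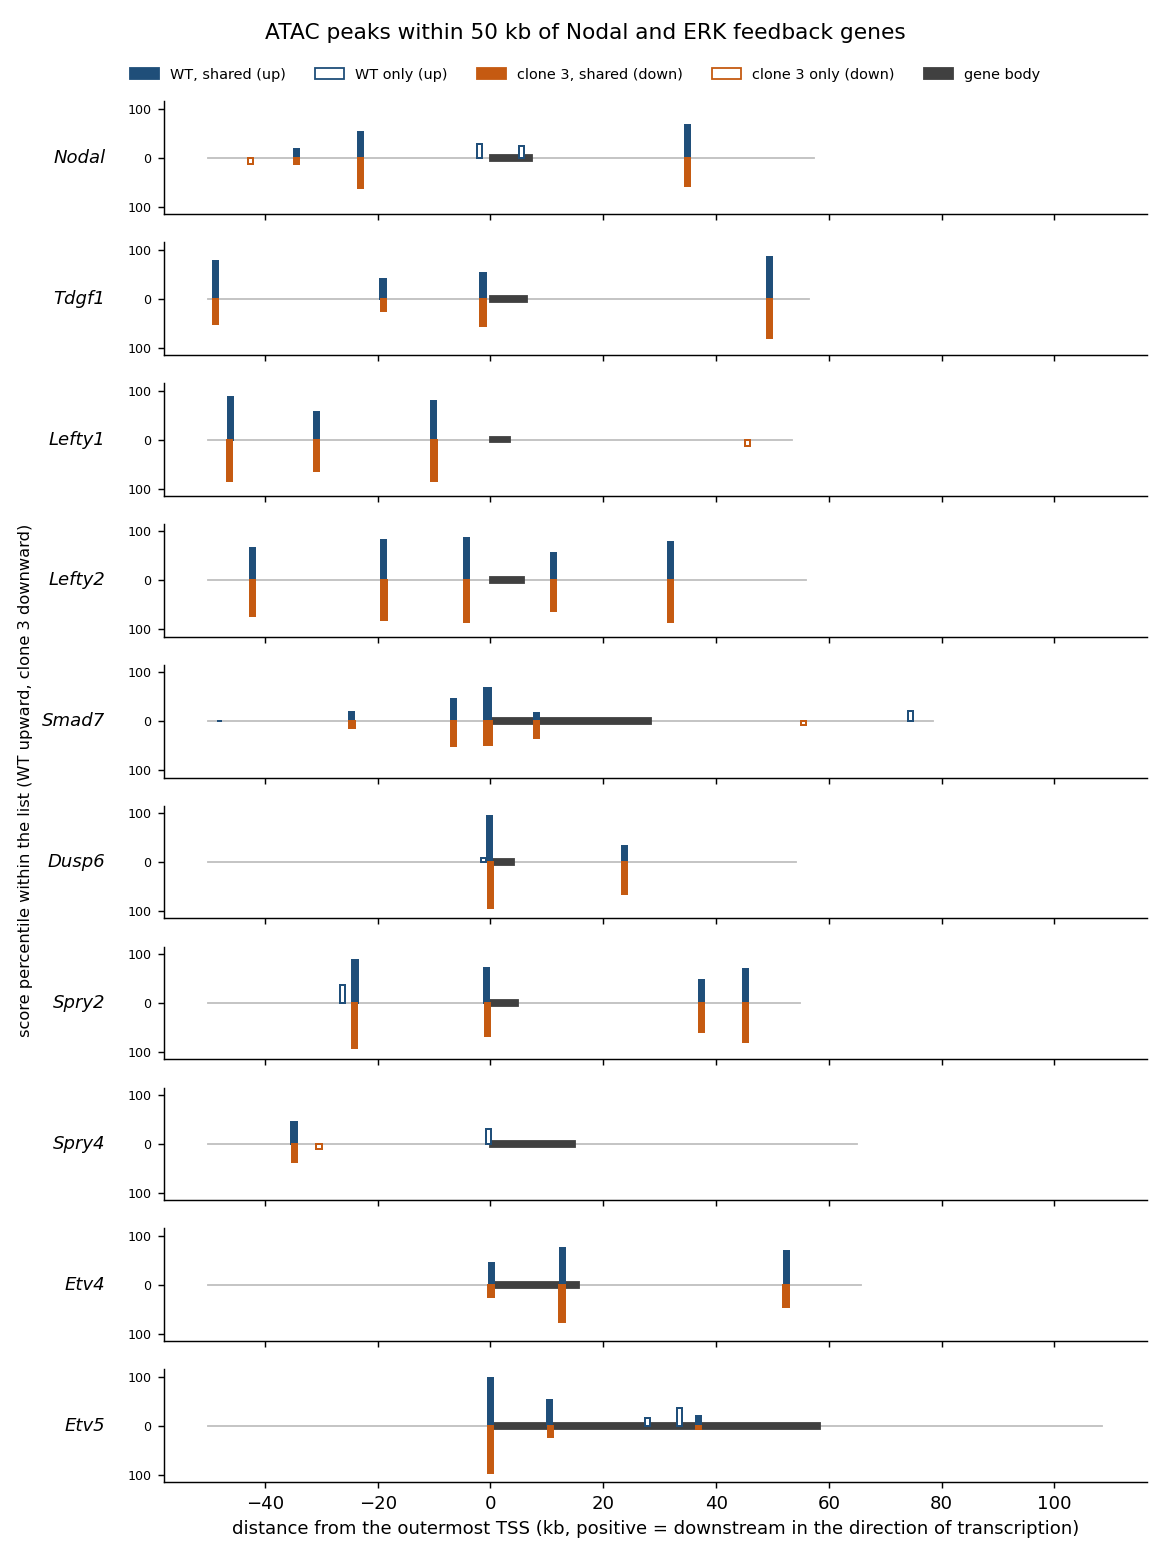
Peaks within 50 kb of each gene, drawn from its outermost TSS in the direction of transcription (horizontal axis in kb). Bars give the score percentile within the list, upward for WT and downward for *Spen* KO clone 3, filled for shared and open for list-only peaks. Narrow peaks are widened to 0.9 kb so that they can be seen, and the dark horizontal bar is the gene body. The tallest bars stand at the starts of *Etv5* and *Dusp6*, and the open bars are all short.

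*Nodal* encodes the ligand. It lies on chr10:60880720-60888086 (mm9, plus strand) and had 5 WT and 4 clone 3 peaks in its window. The 2 peaks at the gene itself were found in WT only. One was 730 bp wide, at chr10:60878441-60879170, 1.92 kb upstream of the TSS in intergenic sequence, with replicate values of 17.3 and 14.0 (28.3rd percentile). The other was 370 bp wide, at chr10:60886103-60886472 in the coding sequence of *Nodal*, 5.57 kb downstream of the TSS, with values of 16.0 and 13.6 (23.5th percentile). The clone 3 peak nearest to both was the shared one described next, 20.5 and 28.2 kb away, so clone 3 had no peak in or next to the gene. The intergenic peak 23.0 kb upstream (WT chr10:60857479-60857939, 461 bp, and 524 bp in clone 3) was shared. Its values were 19.7 and 20.8 in WT and 16.4 and 24.6 in clone 3, at score percentiles of 53.4 and 62.3, and the WT percentiles (48.9 and 57.3) lay inside the span of the clone 3 ones (41.6 and 75.5). The only clone 3-only peak of the window, 254 bp wide at chr10:60838027-60838280, lay 42.6 kb upstream in an intron of the neighbouring gene *X99384*, with values of 10.7 and 11.4 (12.9th percentile). The remaining peaks were at the starts of the neighbours *X99384*, lower in clone 3 (16.3 and 23.2 in WT, 15.9 and 9.99 in clone 3, as percentiles), and *Eif4ebp2*, where the lines overlapped. The nearest peaks outside the window only just missed it, 50.1 kb from the gene in WT and 50.2 kb in clone 3.

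*Tdgf1* encodes the co-receptor of Nodal and lies on chr9:110842114-110848662 (minus strand). All 4 of its WT peaks were shared with clone 3, and neither list had a peak inside the gene. The peak nearest to the TSS, 611 bp wide in WT at chr9:110849688-110850298, ended 1026 bp upstream of it (598 bp wide in clone 3) and so fell just outside the 1 kb used for TSS peaks. Its values were 19.6 and 19.9 in WT and 20.6 and 17.7 in clone 3, and its score percentile was 51.4 in WT and 56.6 in clone 3, with overlapping replicates. The strongest peak of the window lay 49.5 kb downstream, in the gene *Als2cl* (WT chr9:110798847-110799520, 674 bp, and 753 bp in clone 3), with values of 27.3 and 38.9 in WT (85.2nd percentile) and 27.9 and 25.8 in clone 3 (80.5th). It also overlapped between the lines. The intergenic peak 48.8 kb upstream (WT chr9:110897207-110897666, 460 bp, and 469 bp in clone 3), which starts 48.5 kb from the gene and so lies just inside the window, was lower in clone 3: its values were 33.9 and 21.3 in WT and 17.4 and 18.7 in clone 3. Its percentiles were 84.6 and 59.4 in WT and 47.8 and 54.98 in clone 3, and the score percentile fell by 24.95 points, from 76.0 to 51.0. The fourth peak, 19.1 kb upstream in an intron of *Lrrc2*, overlapped between the lines, with the clone 3 replicates far apart at percentiles of 47.5 and 10.2.

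*Lefty1* and *Lefty2* encode the secreted inhibitors of Nodal and are neighbours on chromosome 1, *Lefty2* at chr1:182823239-182829234 and *Lefty1* at chr1:182865153-182868531, both on the plus strand. Their windows overlap and share 3 peaks in each list. No peak lay inside either gene, and the strong peaks stood upstream of each. The peak 4.21 kb upstream of *Lefty2*, 941 bp wide at chr1:182818555-182819495 in WT and 724 bp in clone 3, had values of 35.3 and 34.6 in WT and 30.7 and 28.3 in clone 3. Its score percentiles were 87.4 and 85.1. It was lower in clone 3, but by little: the replicate percentiles were 86.2 and 87.6 in WT and 85.7 and 83.1 in clone 3. The peak 10.04 kb upstream of *Lefty1*, 832 bp wide at chr1:182854702-182855533 in WT and 662 bp in clone 3, had values of 32.1 and 25.04 in WT (77.9th percentile) and 30.9 and 26.8 in clone 3 (84.1st), and the lines overlapped. A peak 18.9 kb upstream of *Lefty2* (WT chr1:182804081-182804584, 504 bp, and 484 bp in clone 3) stood at the 81.5th percentile in WT, with values of 28.9 and 32.3, and at the 81.4th in clone 3, with 26.3 and 28.3. These 3 intergenic peaks thus ranked high in both lists and were shared. The peaks upstream of *Lefty1* and farther upstream of *Lefty2* were not separated between the lines. The only list-only peak was in clone 3, 261 bp wide at chr1:182910634-182910894 in an intron of *Ephx1*, 45.6 kb downstream of the *Lefty1* TSS, with values of 13.5 and 9.14 (13.9th percentile).

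The upstream peaks of *Lefty1* and *Lefty2* each hold 2 matches to the FoxH1 motif AATNCACA, searched on both strands. They are shown because FoxH1 acts in this pathway and they were the only peaks of the loci with more than 1 such match, so they were picked after the matches had been seen. Over whole peaks, 0.290% of autosomal WT peaks and 0.298% of clone 3 peaks hold 2 or more such matches. These shares are not from like peaks. Both Lefty peaks are distal and, in WT, 941 and 832 bp wide, against a median of 544 bp over all autosomal peaks. All 4 matches read AATCCACA on one strand, on the plus strand at *Lefty2*, where they start 83 bp apart, and on the minus strand at *Lefty1*, 63 bp apart. The end of the *Lefty2* peak further holds 2 matches to the Smad CAGA box core CCAGACA, both on the minus strand, and 1 to the Smad palindrome GTCTAGAC. Those 3 matches lie within the WT peak but beyond the end of the clone 3 peak, which spans chr1:182818590-182819313. The sequences are from mm9, plus strand, with the matches in capitals, and cover chr1:182819004-182819134, chr1:182819362-182819477 and chr1:182854925-182855035.
Lefty2 peak, FoxH1 matches: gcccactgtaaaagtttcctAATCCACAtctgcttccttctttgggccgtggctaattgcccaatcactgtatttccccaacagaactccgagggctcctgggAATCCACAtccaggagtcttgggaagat
Lefty2 peak, Smad matches: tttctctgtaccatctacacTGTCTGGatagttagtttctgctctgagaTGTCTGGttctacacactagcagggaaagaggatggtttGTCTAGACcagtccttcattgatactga
Lefty1 peak, FoxH1 matches: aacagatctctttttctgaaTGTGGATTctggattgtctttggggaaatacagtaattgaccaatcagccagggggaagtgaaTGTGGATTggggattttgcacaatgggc

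*Smad7* encodes the inhibitory Smad that blocks the activated receptors. It lies on chr18:75527183-75555589 (plus strand), with 6 WT and 5 clone 3 peaks. The peak over its outermost TSS was the widest at the 10 loci, 1171 bp in WT (chr18:75526065-75527235) and 1362 bp in clone 3. Its values were 21.4 and 26.8 in WT and 17.3 and 17.7 in clone 3. It was lower in clone 3, at replicate percentiles of 56.3 and 75.4 in WT and 46.2 and 50.5 in clone 3, and the score percentile fell by 19.7 points, from 67.5 to 47.8. A peak 8.16 kb into the gene, in an intron (WT chr18:75535139-75535545, 407 bp, and 361 bp in clone 3), lies 571 bp from the annotated start of a non-coding *Smad7* transcript and went the other way. Its values were 12.6 and 14.2 in WT (17.0th percentile) and 15.8 and 14.6 in clone 3 (33.3rd), and its replicate percentiles 15.4 and 24.3 in WT and 38.2 and 33.6 in clone 3. The distal peak 6.50 kb upstream (WT chr18:75520488-75520874, 387 bp, and 565 bp in clone 3) had replicates that disagreed within each line, at 13.9 and 23.2 in WT (45.4th percentile) and 21.2 and 14.6 in clone 3 (50.3rd), so the lines overlapped. The distal peak 24.6 kb upstream (WT chr18:75502152-75502923, 772 bp, and 530 bp in clone 3) was weak and lower in clone 3, with values of 14.4 and 12.9 in WT (18.3rd percentile) and 12.1 and 10.8 in clone 3 (14.2nd). The 3 list-only peaks lay far from the gene. Those of WT were 48.0 kb upstream (chr18:75478856-75479523, 668 bp, 7.75 and 7.84, 1.22nd percentile) and 74.5 kb downstream of the TSS in an intron of *Ctif* (chr18:75601520-75601884, 365 bp, 15.5 and 13.3, 21.5th percentile). That of clone 3 was 55.5 kb downstream (chr18:75582595-75582869, 275 bp, 7.98 and 11.3, 7.88th percentile).

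*Dusp6* encodes the phosphatase that removes the activating phosphates from ERK, and lies on chr10:98725865-98730122 (plus strand). Its TSS peak was among the strongest in both lists, at rank 1110 in WT and 1621 in clone 3. It was 604 bp wide in WT (chr10:98725471-98726074) and 486 bp in clone 3, with values of 49.1 and 42.4 in WT (95.1st percentile) and 41.8 and 33.6 in clone 3 (93.2nd). The replicate percentiles overlapped. A second, weak peak just upstream was found in WT only, 322 bp wide at chr10:98724392-98724713, with values of 11.6 and 9.86 (8.41st percentile). It ended 1152 bp from the TSS, 893 bp short of the nearest clone 3 peak. The only distal shared peak, in intergenic sequence 23.8 kb downstream of the TSS (WT chr10:98749472-98749902, 431 bp, and 467 bp in clone 3), was higher in clone 3. Its values were 19.1 and 13.7 in WT and 22.6 and 20.3 in clone 3. With percentiles of 46.8 and 21.4 in WT and 68.4 and 61.7 in clone 3, its score percentile rose by 32.7 points, from 33.3 to 66.0, the largest shift in either direction among the 29 shared peaks. No other coding gene starts within 50 kb of *Dusp6*.

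*Spry2* and *Spry4* encode Sprouty proteins, which damp signalling from receptor tyrosine kinases to ERK. *Spry2* lies on chr14:106291166-106296036 (minus strand) in a gene-poor stretch with no other coding start in the window. Its TSS peak, at chr14:106296290-106297240 in WT, narrowed from 951 bp to 568 bp in clone 3. The values were 32.5 and 19.6 in WT (72.5th percentile) and 22.2 and 21.6 in clone 3 (67.7th), so that the percentiles of WT (82.7 and 52.7) enclosed those of clone 3 (67.3 and 66.7). The strongest peak of the locus was distal, 24.0 kb upstream (WT chr14:106319701-106320415, 715 bp, and 688 bp in clone 3), with values of 32.3 and 38.8 in WT (88.1st percentile) and 38.4 and 31.8 in clone 3 (91.4th), and it overlapped between the lines. On the other side, 45.2 kb downstream of the TSS, a shared intergenic peak (WT chr14:106250595-106251066, 472 bp, and 447 bp in clone 3) was higher in clone 3, at the 69.5th percentile in WT and the 79.96th in clone 3. Its values were 24.0 and 25.7 in WT and 26.5 in both clone 3 replicates, and its replicate percentiles were 64.7 and 72.7 in WT and 78.8 and 79.6 in clone 3. The fourth shared peak, 37.4 kb downstream, rose from the 47.8th to the 59.7th percentile with overlapping replicates. The WT-only peak, 368 bp wide at chr14:106322151-106322518, had values of 17.3 and 16.5 (36.0th percentile) and was the strongest list-only peak of the 10 loci. It lay 1.73 kb beyond the strong upstream peak of clone 3.

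*Spry4*, on chr18:38745922-38760922 (minus strand), was the gene whose TSS peak was found in 1 list only. In WT a peak of 532 bp began 74 bp upstream of the TSS (chr18:38760996-38761527), with values of 14.2 and 17.5, replicate percentiles of 22.8 and 43.3 and a score percentile of 29.9. Its midpoint lies in an untranslated region of another annotated gene, so the peak cannot be assigned to *Spry4* alone. In clone 3 the nearest peak was 29.6 kb away. The start of *Spry4* thus had a peak below the median of the WT list and none in that of clone 3. A shared intronic peak of *Arhgap26*, 34.8 kb upstream (WT chr18:38795545-38795960, 416 bp, and 550 bp in clone 3), overlapped between the lines, with values of 15.0 and 22.1 in WT (45.5th percentile) and 17.8 and 13.4 in clone 3 (36.2nd). A clone 3-only peak in the same gene, 30.4 kb upstream at chr18:38791102-38791552 and 451 bp wide, had values of 8.70 and 12.1 (10.5th percentile).

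*Etv4* and *Etv5* encode ETS transcription factors of the PEA3 group, and both are induced by FGF and ERK. All 3 peaks of the *Etv4* window (gene on chr11:101631056-101646685, minus strand) were shared. The peak over its start (WT chr11:101646323-101646817, 495 bp, and 506 bp in clone 3) had values of 14.9 and 21.9 in WT (44.7th percentile) and 14.0 and 13.1 in clone 3 (24.2nd). The score percentile fell by 20.6 points, but the WT replicates were far apart (26.8 and 61.2) and reached down to the clone 3 ones (27.6 and 24.7), so the lines were not separated. A stronger peak lay 12.8 kb into the gene, in an intron (WT chr11:101633594-101634232, 639 bp, and 540 bp in clone 3), 99 bp in WT from the start of a short non-coding *Etv4* transcript. It had values of 23.9 and 30.5 in WT (75.1st percentile) and 27.0 and 21.7 in clone 3 (74.98th). Its replicate percentiles (64.5 and 82.1 in WT, 79.6 and 67.3 in clone 3) gave shifts of opposite sign, so the lines were not separated and the equal scores do not show an equal rank. The third peak, at the start of the neighbour *Dhx8* 52.4 kb downstream of the *Etv4* TSS, was lower in clone 3, with percentiles of 70.5 and 65.6 in WT and 39.8 and 52.6 in clone 3.

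*Etv5* (chr16:22381382-22439792, minus strand) had a peak of high rank at its start and weaker ones in its body. The TSS peak was the strongest of the 10 loci in both lists, at rank 701 in WT and 697 in clone 3. It was 610 bp wide in WT (chr16:22439516-22440125) and 557 bp in clone 3. Its values were 54.8 and 46.8 in WT (96.9th percentile) and 40.1 and 53.3 in clone 3 (97.1st), and the lines were not separated, with replicates that shifted in opposite directions. Of the 4 WT peaks inside the gene, 2 had no clone 3 partner and the other 2 were lower there. The WT-only ones were an intronic peak at chr16:22406117-22406577 (461 bp), with values of 19.4 and 14.3 (35.4th percentile), and a peak over a coding exon at chr16:22411772-22412163 (392 bp), with 11.9 and 13.9 (15.1st). The intronic peak 10.5 kb into the gene (WT chr16:22428874-22429768) narrowed from 895 to 548 bp. Its values were 19.8 and 19.7 in WT and 13.4 and 13.2 in clone 3, and the score percentile fell by 28.7 points, from 51.6 to 22.8, with replicate percentiles of 49.7 and 53.2 in WT and 24.1 and 25.2 in clone 3. The intronic peak 36.8 kb into the gene (WT chr16:22402713-22403197, 485 bp, and 384 bp in clone 3), 811 bp from the start of an annotated *Etv5* transcript marked for nonsense-mediated decay, had values of 15.1 and 13.2 in WT (20.4th percentile) and 9.15 and 10.1 in clone 3 (7.81st). No clone 3-only peak lay in the window, and no other coding gene starts in it.

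Across the loci, 4 of the 29 shared peaks were higher in clone 3, against 23.0% of all autosomal shared pairs, 8 were lower, against 22.9%, and 17 overlapped. The median shift of the score percentile was -1.96 points, against -0.0586 over all autosomal pairs. Peaks at starts and distal peaks differed over the whole lists: of autosomal pairs at a coding TSS, 13.6% were higher and 28.9% lower, and of the others 31.4% were higher and 17.5% lower. Of the 13 shared peaks at the start of a listed gene or of a neighbour, 2 were higher and 4 lower, with a median shift of -4.74 points against -2.78 over all TSS pairs. Of the 16 distal ones, 2 were higher and 4 lower, with a median of 1.54 points against 3.26 over all non-TSS pairs. The 8 peaks at a start of a listed gene itself comprised 1 higher, that inside *Smad7*, and 2 lower, those at the *Smad7* TSS and at the internal start of *Etv5*. Most of the shared peaks of the loci were thus not separated between the lines, and neither were most of all autosomal shared pairs. The gap between these small counts and the shares of all pairs was not tested. Of the 29 shared peaks 20 were narrower in clone 3, against 57.8% of all autosomal pairs. Replicates of 1 line differed by a median of 8.96 percentile points over the WT peaks of the loci and 5.74 over those of clone 3, against 8.84 and 8.91 over all peaks, so a shift of a few points cannot be told apart from a difference between replicates of 1 line.

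**Figure D2:**
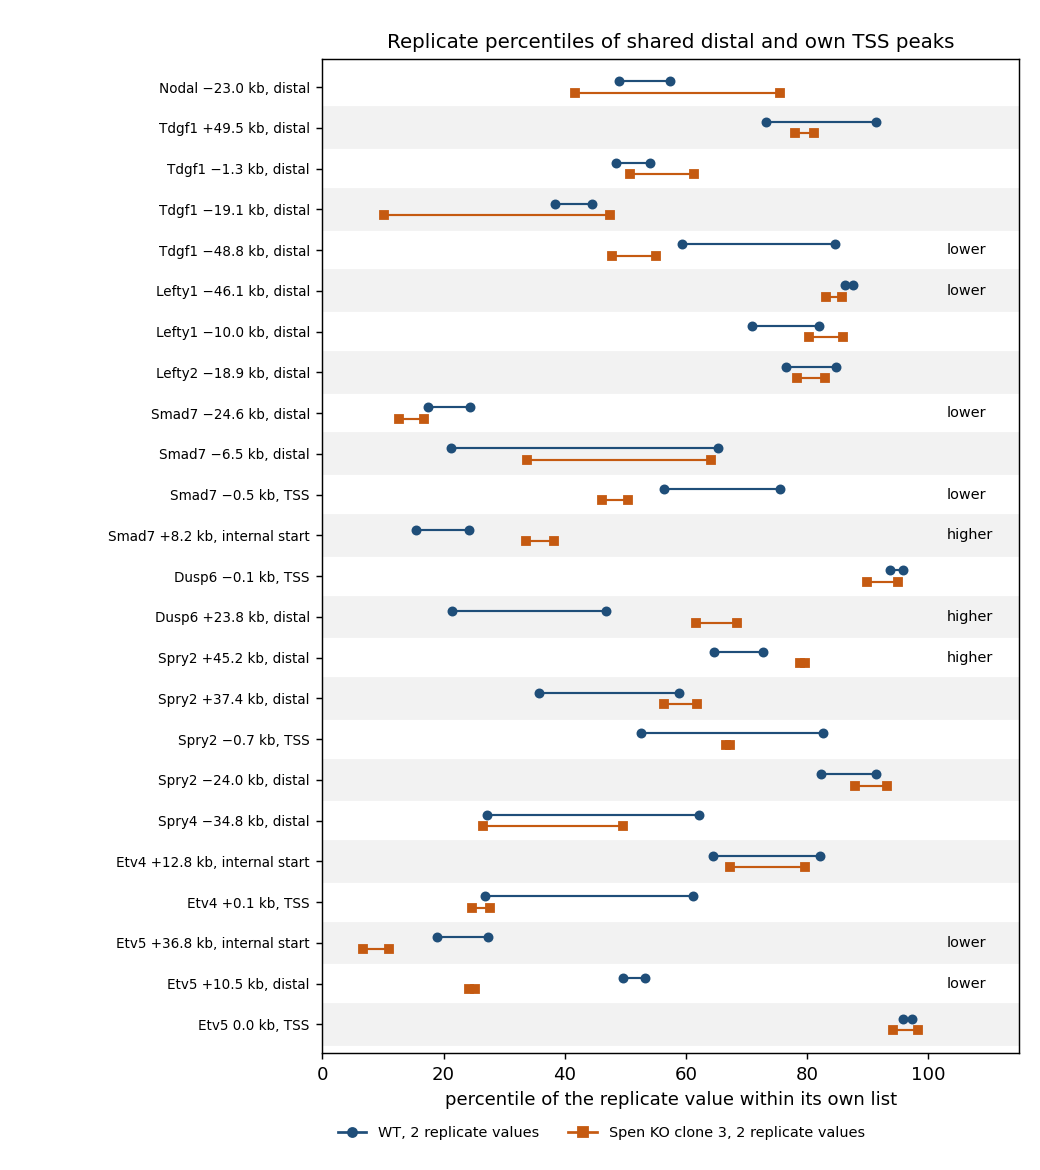
Replicate percentiles of the shared distal peaks and the shared peaks at starts of the listed genes, each within its own list, with the gene and the distance of the peak midpoint from the outermost TSS at the left (peaks in both Lefty windows are listed once, under *Lefty1*; peaks at starts of other genes are not drawn). Circles are the WT and squares the clone 3 technical replicates, lines join the replicates of a line, and peaks whose clone 3 values both lie above or below the WT ones are marked higher or lower.

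The peaks were searched for 9 motifs within 300 bp around the midpoint, on both strands, beside the share of all autosomal peaks of the same list. The FoxH1 motif AATNCACA was in 3 of 38 WT and 3 of 33 clone 3 peaks (7.89% and 9.09%, against 3.48% and 3.56%), and the CAGA box core CCAGACA in 5 and 4 (13.2% and 12.1%, against 7.21% and 7.40%). The Smad palindrome GTCTAGAC was in 0 and 1, against 0.341% and 0.298%. The ETS motif CCGGAAGT was in 2 and 2 (against 3.80% and 3.33%), none of them at the start of a listed gene, since one was at the start of *Dhx8* and the other in the peak 48.8 kb upstream of *Tdgf1*. The AP-1 motif TGACTCA was in 5 and 2 (against 6.33% and 5.84%), the Oct4 octamer ATGCAAAT in 2 and 1 (against 3.24% and 3.29%) and the Stat3 motif TTCCNGGAA in 2 and 1 (against 1.26% and 1.13%). The Klf motif GGGTGTGG was in 0 and 1 (against 4.58% and 4.73%), and the Esrrb motif TCAAGGTCA in 0 and 0 (against 0.548% and 0.735%). The intervals are wide at these numbers: that of the WT FoxH1 share runs from 2.72 to 20.8%. The shares of all peaks also mix classes. In WT, FoxH1 was in 1.18% of autosomal TSS peaks and 5.32% of the others, and the CAGA box core in 4.85% and 9.11%. AP-1 was in 2.95% and 9.03%, while ETS went the other way, with 7.09% and 1.17%. Of the 38 WT peaks at the loci, 24 were distal, so the shares of all peaks are not a matched background. A match describes the letters only.

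Further stretches are shown for some of the peaks that differed or ranked highest, each with matches in capitals. These peaks were picked after the matches had been seen, among those that hold one, so they do not represent all peaks that differed. The *Dusp6* TSS peak and the WT-only peak upstream of *Nodal* hold no match to any motif searched and are not shown. The WT-only peak over a coding exon of *Etv5* holds an Oct4 octamer and is not shown either. The WT-only peak in the coding sequence of *Nodal* holds a CAGA box core (chr10:60886255-60886301, mm9, plus strand), as does the *Dusp6* peak that rose by 32.7 points (chr10:98749646-98749692, plus strand). The WT-only intronic peak of *Etv5* holds an AP-1 and a FoxH1 match (chr16:22406257-22406445, minus strand), the latter reading AATACACA on the opposite strand. The sequence upstream of the *Etv5* TSS, under the strongest peak of the loci, holds an AP-1 match (chr16:22439793-22440059, minus strand), outside the central 300 bp of the peak.
Nodal WT-only peak: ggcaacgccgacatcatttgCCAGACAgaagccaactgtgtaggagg
Dusp6 downstream peak: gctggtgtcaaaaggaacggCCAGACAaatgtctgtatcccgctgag
Etv5 WT-only intronic peak: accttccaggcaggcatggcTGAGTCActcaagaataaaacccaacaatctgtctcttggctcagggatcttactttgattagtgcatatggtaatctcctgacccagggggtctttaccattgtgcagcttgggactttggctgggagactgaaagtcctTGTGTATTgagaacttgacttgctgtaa
Etv5 promoter: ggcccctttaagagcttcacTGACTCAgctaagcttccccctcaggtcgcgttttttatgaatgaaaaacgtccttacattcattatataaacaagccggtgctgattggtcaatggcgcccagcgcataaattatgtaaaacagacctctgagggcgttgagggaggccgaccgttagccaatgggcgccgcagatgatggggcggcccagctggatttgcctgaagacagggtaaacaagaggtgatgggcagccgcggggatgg

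The median GC content of the 300 bp windows was 55.5% in WT and 55.7% in clone 3, against 57.7% and 57.3% over all autosomal peaks. At starts of the listed genes, with the internal starts of *Smad7*, *Etv4* and *Etv5* counted, the median was 57.3% in WT and 61.5% in clone 3, against 65.3% and 65% of all autosomal TSS peaks. At the outermost starts alone, 6 in WT and 5 in clone 3, it was 63.7% and 65.7%.

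Other genes of both pathways were counted from fixed lists. On the Nodal side, 13 of 18 genes had a TSS peak in WT, against 46.3% of all autosomal coding genes, and 11 in clone 3, against 42.3%, with 10 in both. The percentile of a gene, here and for the markers below, is that of its strongest TSS peak, taken in each list apart. A gene with several starts may thus be represented by a different peak in each list. The receptor gene *Acvr1b*, for example, stood at the 37.1st percentile in WT and the 22.5th in clone 3, and *Smad2*, which encodes a transducer, at the 85.5th and the 47.6th. The 3 with a TSS peak in WT only were *Smad3*, *Foxh1*, which encodes the Smad partner, and *Skil*, which encodes a Smad co-repressor, at percentiles of 34.0, 7.34 and 75.4. The receptor gene *Acvr2a* had one in clone 3 only, at 22.4. On the ERK side, 18 of 25 genes had a TSS peak in WT and 19 in clone 3, against the same 46.3% and 42.3%, with 16 in both. Those in WT only were *Nras* and *Il17rd*, which encodes the inhibitor Sef, at percentiles of 27.5 and 26.1. Those in clone 3 only were *Ptpn11*, *Mapk3* and *Dusp5*, all under the 10th percentile. Of the 16 with one in both, 11 ranked lower in clone 3, such as *Map2k1*, which encodes the kinase of ERK (82.4 in WT, 46.4 in clone 3), and *Dusp4* (33.3 and 7.18), while the ligand gene *Fgf4* ranked higher (19.7 and 30.1). On the Nodal side 8 of 10 ranked lower. Over all autosomal coding genes with a TSS peak in both lists 63.1% ranked lower in clone 3, a share inside the intervals of both sides (44.4 to 85.8% for ERK and 49.0 to 94.3% for Nodal). The median percentile of the TSS peaks was 54.5 in WT and 36.9 in clone 3 on the ERK side. For Nodal it was 50.8 and 47.6. These medians cover different genes in WT and clone 3. Over genes with a TSS peak in both, the median shift in clone 3 was -13.8 points for ERK and -9.58 for Nodal. Over all such autosomal coding genes it was -2.83 points, and the gap was not tested. In the 50 kb windows of the Nodal genes, 22.8% of WT and 24.1% of clone 3 peaks were list-only. In those of the ERK genes the shares were 26.2% and 23.5%. All of these lay near the shares of all peaks.

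Of 8 mESC marker genes, 7 were found in the annotation by name, and 5 had a TSS peak in each list, 4 of them in both. Over all autosomal coding genes, 46.3% had one in WT and 42.3% in clone 3. *Zfp42* was the strongest, at the 90.1st percentile in WT and the 90.5th in clone 3. *Pou5f1* stood at 34.4 and 44.6, *Esrrb* at 16.7 and 24.5, and *Utf1* at 64.7 and 53.3. Thus 1 of the 4 ranked lower in clone 3 (95% Wilson interval 4.56 to 69.9%), against 63.1% of all such autosomal coding genes. *Sox2* had a TSS peak in WT only and *Klf4* in clone 3 only. *Nanog* had none in either list, although its window held 4 WT and 5 clone 3 peaks. In the windows of these markers, 38.5% of WT peaks (95% Wilson interval 22.4 to 57.5%) and 43.3% of clone 3 peaks (27.4 to 60.8%) were list-only, against 26.0% and 28.4% of all autosomal peaks, which both intervals include. Of the markers of other cells, a TSS peak was found in WT and clone 3 at 1 and 0 of 4 feeder fibroblast genes (*Thy1*), 2 and 1 of 4 primitive endoderm genes (*Gata4* and *Foxa2*), 0 and 1 of 4 primed epiblast or mesoderm genes (*Eomes*) and 1 and 2 of 2 neural genes (*Pax6* and *Neurod1*). The shares of all autosomal coding genes to set beside these counts are again 46.3% and 42.3%. The percentile of *Pax6* was 23.6 in WT (values of 17.3 and 12.4) and 67.4 in clone 3 (18.995 and 24.6). That difference is larger than the shift of any shared peak at the 10 loci, but the peaks were not matched between the lists. *Neurod1* stood at 48.4 in clone 3. *Foxa2* went the other way, with 37.8 in WT and 12.9 in clone 3. An open start is not expression, so these counts do not measure other cells, and their part in the differences between the lists was not tested.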

How the data were processed

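The authors used CutAdapt for trimming and Bowtie2 for alignment to mm9. Read pairs with several possible positions and PCR duplicates (Picard) do not enter the lists. Each technical replicate went through MACS2 by itself, with no shift model built. Peaks passing an irreproducible discovery rate (IDR) threshold were kept, and the highest IDR in the lists is 0.0500. The deposited score values are 1 number per replicate and peak, on a scale the authors do not name, so only ranks within a list were used here. Because uniquely mapping reads alone were kept, repeats may be under-called.

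Coordinates were read as counted from 1, and 55 WT and 66 clone 3 peaks on sequences other than chromosomes 1 to 19 and X were left out. Overlaps, percentiles, TSS peaks and motifs were computed in Python 3.11.15 (pandas 2.3.3, numpy 2.4.6) with the NCBIM37 (mm9) sequence and GENCODE vM1, and Wilson intervals with scipy 1.17.1. The functions were tested on simulated peaks. All 10 genes are named; every TSS peak, every list-only peak and the 2 highest-scoring distal peaks per gene and list are given with WT coordinates (those of clone 3 for its own peaks), width, both replicate values and score percentile, and other features singled out were chosen after their values were seen. Gene members and lists were chosen with earlier results of these data known. Alternatives covered the overlap, the window, score and IDR thresholds, TSS distance, ranking and motif window.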

Additional observations from a re-analysis of the deposited data

How the results depend on the processing

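Of 82 recomputed values, 57 lay within 1.5 times the main count or within the spread between replicates, and 25 did not. The list-only counts depended most on the window and the thresholds. Within 20 kb of the genes, 6 WT-only, 0 clone 3-only and 17 shared WT peaks remained in the window, and within 100 kb there were 13, 10 and 37. With both lists limited to scores at or above their median, 3 peaks counted as WT-only and 16 as shared, because partners below the median were dropped; looked up in the whole other list, an alternative chosen after seeing the data, 0 WT-only and 0 clone 3-only peaks were left. With both lists at IDR up to 0.01, there were 11 WT-only, 1 clone 3-only and 19 shared peaks, so that the WT-only count rose while the clone 3-only count fell, and against the whole other list, also chosen afterwards, 4 WT-only and 0 clone 3-only. A TSS distance of 2 kb raised the genes with a TSS peak to 8 in WT, adding *Nodal* and *Tdgf1*, and to 6 in clone 3, adding *Tdgf1*. The calls moved little with the ranking: 3 or 4 peaks were higher and 7 or 8 lower. The median shift of the 8 TSS peaks was -3.35 points and ran from -5.87 to -1.96 with either replicate left out, but 4 of the 8 (*Spry2*, *Etv5* and both of *Etv4*) took opposite signs in the 2 replicates: *Spry2* ran from -15.3 to 14.0, the *Etv4* TSS peak from -36.5 to 0.792, that at its internal start from -14.9 to 15.2, and the *Etv5* TSS peak from -3.11 to 2.48. Searching whole peaks in place of 300 bp raised most of the counts but not all. The WT peaks with a match were 5 for FoxH1 (against 5.95% of all autosomal peaks), 9 for the CAGA box core (12.4%), 2 for the Smad palindrome (0.567%), 1 for Esrrb (1.04%) and 3 for Klf (7.54%). Those of clone 3 were 8 for the CAGA box core (12.1%), 4 for AP-1 (8.87%), 2 for the Oct4 octamer (4.34%), 1 for Esrrb (1.22%), 2 for Klf (7.21%) and 2 for Stat3 (1.86%). Unchanged were FoxH1 (3, against 5.65%) and the Smad palindrome (1, against 0.503%) in clone 3, ETS in both (2 and 2, against 5.30% and 4.53%) and Stat3 in WT (2, against 2.10%). AP-1 in WT came to 7 (9.90%) and the Oct4 octamer to 3 (4.38%). With 1 list and 1 knockout clone, variation between cultures and clones was not measured.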
